A study of Mus musculus with 3 samples.

Results

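OM-CD_a is one of 2 clusters of outer medullary collecting duct (CD) cells in a single-cell RNA data set of the mouse renal medulla. Its members are the cells to which the authors' deposited annotation gives the cluster OM-CD_a and the cell type CD. They numbered 11816 of 181257 cells in all, 24.1% of the 49021 CD cells, and formed the 5th largest of 25 clusters. The other CD clusters are OM-CD_b, IM-CD and deepIM-CD of the inner medulla, InjuredCD, and Uro. Uro is urothelium by its name, not collecting duct, but the annotation gives it the cell type CD. Shares of CD cells here therefore include it. The cells came from male BALB/c mice in 3 groups: healthy controls (4 pools), mice 28 days after reversal of unilateral ureteric obstruction, R-UUO (4 pools), and mice 84 days after R-UUO (2 pools). In R-UUO the left ureter of mice aged 12 to 13 weeks was closed with a small clamp. The clamp was taken off after 5 to 7 days, a time the study set by strain. The right kidney was removed 10 days after the reversal. For BALB/c mice the study describes survivors of 7 days of closure, with other mice dying soon after the nephrectomy. The R-UUO groups thus hold survivors. The labels describe the controls only as healthy and untreated, and their age is not given in the sources used here. No group had the obstruction without the nephrectomy or the nephrectomy without the obstruction, so their parts cannot be told apart. Each pool joined 3 to 4 dissected medullas. The tissue is called papilla in the labels and renal medulla in the study's text, which also describes the outer medulla in it as variable.

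The collecting duct carries urine from the cortex through the outer and inner medulla to the tip of the papilla. Most of its cells are principal cells, which take up water through aquaporin-2 (Aqp2) in the apical membrane under the control of vasopressin and release it through aquaporin-3 (Aqp3) in the basolateral membrane. They also reabsorb sodium through the epithelial sodium channel, while intercalated cells between them handle acid and base. The outer medullary segment lies among the thick ascending limbs of the inner and outer stripe, which build the salt gradient on which water uptake depends. Aqp2 and Aqp3 are the markers given for OM-CD_a, but the expression of single genes was not analysed here, so the name of the cluster was not checked against its genes and is the authors' own. What follows rests on 4 measurements of each cell, namely its cluster, its UMIs, its number of detected genes and its mitochondrial percent. UMIs are unique molecular identifiers, which here count molecules of hybridised probes rather than the RNA molecules themselves. The mitochondrial percent is the share of a cell's UMIs from mitochondrial genes.

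The pools held between 13013 and 24338 cells. Probe barcodes marked the pools, and 2 pools of a condition had between 19.7% and 31.7% of droplet barcodes in common (as a share of the pool with fewer), against 1.88% to 3.48% for pools of different conditions. The pools of a condition thus look like a single droplet run, and run and condition cannot be told apart in any comparison given here. OM-CD_a cells lay in such shared droplets as often as other cells, 57.6% against 57.5% in the controls, 48.0% against 48.6% at day 28 and 24.98% against 24.66% at day 84.

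What share of the annotated CD cells, Uro included, was OM-CD_a after R-UUO? No change in the share of OM-CD_a among CD cells passed the threshold, while the shares of the clusters around it did change. It made up 23.7%, 25.8%, 31.4% and 23.7% of CD cells in the 4 control pools. The day 28 pools had 25.8%, 28.0%, 19.9% and 23.2%, and the day 84 pools had 20.8% and 22.1%. Of the day 28 pools 2 lay within the range of the controls and 2 below it, and both day 84 pools lay below the lowest control pool. The mean share was 26.2% ± 3.66 (SD, n = 4 pools) for controls, 24.2% ± 3.46 (SD, n = 4 pools) for day 28 and 21.4% ± 0.908 (SD, n = 2 pools) for day 84. On the log2 odds scale day 28 differed from control by -0.15 (standard error 0.250, 95% interval -0.70 to 0.40, limma adjusted p = 0.566) and day 84 by -0.37 (standard error 0.306, 95% interval -1.04 to 0.30, limma adjusted p = 0.252). These intervals leave room for a change of the odds to between 0.617 and 1.32 times the control at day 28. At day 84 they leave room for 0.485 to 1.23 times. In the same fit 5 of the 6 CD clusters, 83.3%, passed an adjusted p of 0.05 at day 28, and OM-CD_a was the 1 that did not; at day 84 3 of the 6, 50%, passed.

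The sign of the day 28 value depended on which cells were counted with it. With InjuredCD cells left out of the CD cells, the day 28 change was 0.27 (limma adjusted p = 0.385), and with Uro cells left out, an alternative chosen after the data were seen, it was 0.08 (limma adjusted p = 0.767). The size of the day 84 change depended on this too. Without Uro cells it was -0.024 (limma adjusted p = 0.941), against -0.37 with them. Uro made up 3.04% to 5.62% of CD cells in the control pools and 22.3% and 18.2% in the day 84 pools. When only cells with at least 500 detected genes and at most 5% mitochondrial UMIs were kept, the day 84 change was -0.81 and passed the threshold (limma adjusted p = 0.0301). That filter removes many OM-CD_a cells at day 84, since 13.1% and 35.8% of them in the 2 pools had fewer than 500 genes, against 1.40% ± 0.372 (SD, n = 4) in the controls. Its mitochondrial limit bears more on other CD clusters of the controls. Mean percents there were 3.13% to 3.99% in OM-CD_b and 3.85% to 4.30% in deepIM-CD, against 0.860% to 1.61% in OM-CD_a. Which part of the filter moved the day 84 value was not tested.

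Counted among all cells, OM-CD_a was smaller at day 28 than in the controls. The control pools held 1598, 1704, 1479 and 1678 OM-CD_a cells, which were 8.17%, 7.001%, 10.3% and 8.26% of their cells. At day 28 the 4 pools held 572, 579, 674 and 654, or 4.40%, 4.13%, 4.08% and 4.20%, all below the lowest control pool. At day 84 the 2 pools held 1320 and 1558, or 6.68% and 6.57%, just below the lowest control pool and above every day 28 pool. OM-CD_a fell at day 28 to 0.481 times its control odds (log2 odds change -1.06, standard error 0.175, limma adjusted p = 8.1e-04; exact two-sided permutation p = 0.0286, the smallest that 4 pools against 4 can give). At day 84 the change was -0.36 (95% interval -0.85 to 0.12, limma adjusted p = 0.167), and between day 84 and day 28 it was 0.69 (limma adjusted p = 0.0528). A fall or rise past the threshold was common in this fit, with 88% of the 25 clusters called at day 28, 36% as lower, and 48% called at day 84.

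A share of all cells moves with every other cell type, and the proximal tubule, which lies in the cortex and the outermost medulla, differed between pools. Proximal tubule cells were 0.113% to 3.02% of cells in control pools, 2.95% to 22.8% in day 28 pools and 3.602% to 7.64% in day 84 pools. With proximal tubule cells left out, OM-CD_a was 8.52% ± 1.33 of the remaining control cells, 4.99% ± 0.602 of those at day 28 and 7.02% ± 0.128 of those at day 84 (SD over 4, 4 and 2 pools). The day 28 pool with the least proximal tubule, at 2.95%, had 4.20% OM-CD_a cells, and control pool 2, with 3.02% proximal tubule, had 7.001%. Among the outer medullary clusters only (both OM-CD clusters and the thick ascending limb clusters), OM-CD_a was 43.7% ± 10.6 of control cells. It was 17.6% ± 2.16 at day 28 and 25.3% ± 4.85 at day 84 (SD over 4, 4 and 2 pools). The log2 odds changes were -1.85 and -1.19, both past the threshold (limma adjusted p = 0.0225 for the second). Control and day 84 pools overlapped in this share, at 27.9% to 50.3% against 21.9% and 28.8%. It depends on the other clusters of the set too. At days 28 and 84 the log2 odds of OSOM-TAL_b, of the outer stripe, among all cells changed by 3.44 and 4.24 (limma adjusted p = 0.0014 and 0.0026). Those of OSOM-TAL_a changed by 0.82 and -0.14 (limma adjusted p = 0.0107 and 0.665). The inner stripe limb (ISOM-TAL) changed by -0.21 and -0.76, neither past the threshold. How far the dissection sets these shares was not tested.

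**Figure D1:**
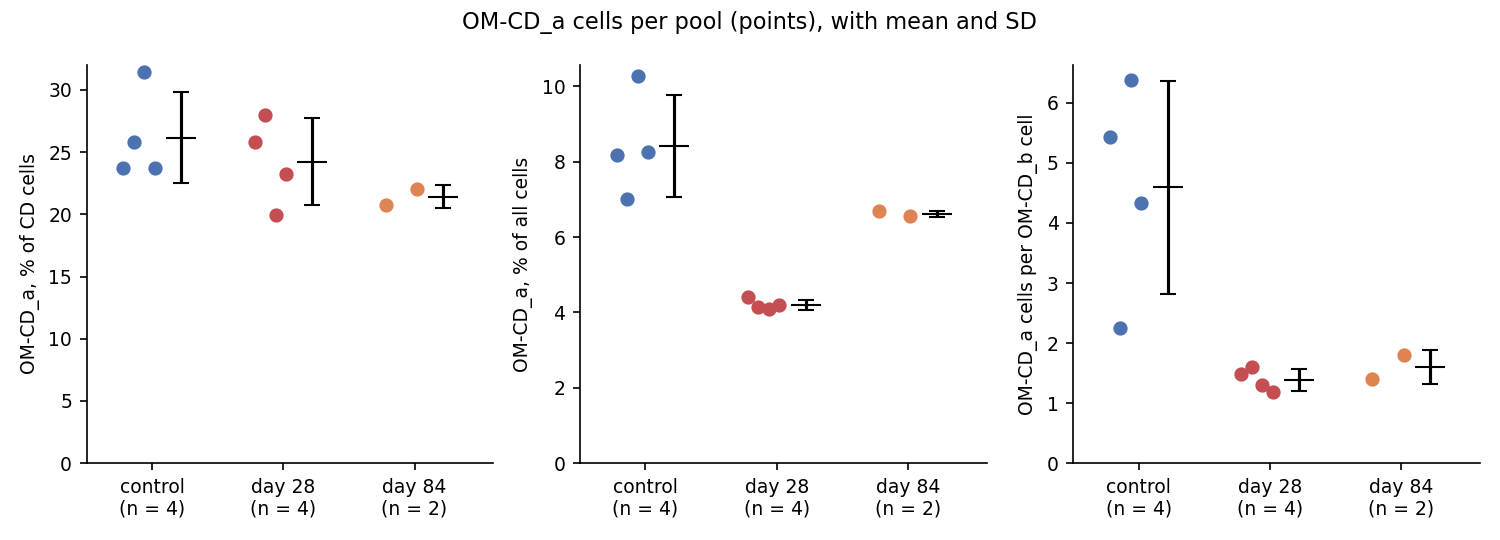
Share of OM-CD_a among CD cells (left, percent), among all cells (middle, percent) and its number of cells per OM-CD_b cell (right), with a point for each pool and a bar for the mean ± SD; control n = 4, day 28 n = 4, day 84 n = 2. The CD shares overlap between controls and day 28, whereas all 4 day 28 pools lie at 4.08% to 4.40% of all cells against 7.001% to 10.3% in the controls, and all 6 pools after R-UUO hold 1.18 to 1.81 cells per OM-CD_b cell against 2.25 to 6.38.

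A ratio of 2 clusters is free of the cells of all others. Its closest comparison is with OM-CD_b, the second outer medullary CD cluster. The control pools had 5.44, 2.25, 6.38 and 4.32 OM-CD_a cells for each OM-CD_b cell. The day 28 pools had 1.48, 1.60, 1.30 and 1.18, and the day 84 pools 1.41 and 1.81. No pool after R-UUO reached the lowest control pool. The ratio fell at day 28 by 1.63 on the log2 scale, to 0.323 times the control (standard error 0.412, 95% interval of the fold 0.171 to 0.610, limma adjusted p = 0.0051). At day 84 the log2 change was -1.43 (standard error 0.504, limma adjusted p = 0.0413). This call was lost on leaving out any 1 of 8 of the 10 pools, with adjusted p up to 0.196 without day 84 pool 1, and held only without control pool 2 or day 28 pool 4. Those 8 pools were control pools 1, 3 and 4, day 28 pools 1, 2 and 3, and both day 84 pools. The change then ran from -1.61 to -1.23. This ratio also moves with OM-CD_b. Among all cells the log2 odds of OM-CD_b rose by 0.66 at day 28 (limma adjusted p = 0.0408). At day 84 they rose by 1.12 (limma adjusted p = 0.0223), while the change of OM-CD_a, -0.36, did not pass the threshold.

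OM-CD_a was set in the same way against the inner medullary clusters. The control pools had 0.538, 1.18, 1.17 and 0.988 OM-CD_a cells for each IM-CD cell, the duct cells of the next segment. After R-UUO they had 2.25, 2.47, 1.48 and 3.94 at day 28, all above the controls, and 1.99 and 1.02 in the day 84 pools. The ratio rose at day 28 by 1.37 (fold 2.58, 95% interval 1.27 to 5.26, limma adjusted p = 0.021), and without control pool 1 the change was 1.11 and no longer past the threshold (limma adjusted p = 0.0637). At day 84 it was 0.62 (95% interval -0.64 to 1.88, limma adjusted p = 0.365). Against deepIM-CD, the duct cells deepest in the papilla, the changes were 1.44 (limma adjusted p = 0.065) and 1.01 (limma adjusted p = 0.295). Without day 28 pool 3 the first was 1.97 and passed (limma adjusted p = 0.0113). Among all cells the log2 odds of IM-CD and deepIM-CD changed by -2.48 and -2.56 at day 28 (limma adjusted p = 8.1e-04 and 0.0051). Those of OM-CD_a changed by -1.06, a smaller fall. At day 84 IM-CD and deepIM-CD changed by -1.03 and -1.44, neither past the threshold.

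Against ISOM-TAL, the thick ascending limb of the inner stripe that runs beside the outer medullary duct, the ratio did not pass the threshold. The log2 changes were -0.79 at day 28 (95% interval -2.05 to 0.48, limma adjusted p = 0.234) and 0.41 at day 84 (95% interval -1.15 to 1.96, limma adjusted p = 0.63). These wide intervals include a change of more than 2-fold in either direction at day 84. InjuredCD cells, which the control pools held in numbers of 8 to 19, were 337 to 808 per pool at day 28 and 866 and 1173 in the day 84 pools. The number of OM-CD_a cells for each InjuredCD cell fell by 6.43 at day 28 (limma adjusted p = 1.6e-06) and by 6.36 at day 84 (limma adjusted p = 1.8e-05) on the log2 scale.

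Over all 24 other clusters, OM-CD_a fell relative to 14 and rose relative to 3 at day 28, while 7 ratios did not pass the threshold. The 3 were IM-CD, ATL (ascending thin limb) and Fib (a fibroblast cluster), of which the last 2 are named after their values were seen. That number was 1 without control pool 1 and 5 without day 28 pool 3. At day 84 OM-CD_a fell relative to 9 clusters and rose relative to none, with 10 ratios at an unadjusted p under 0.05; the number that rose was 2 without day 28 pool 4 or under the stricter cell filter, and 1 without day 28 pool 3. The 17 called ratios at day 28 were 70.8% of those with OM-CD_a, beside 72.3% of the 300 pairs of clusters in the fit, and the 9 at day 84 were 37.5% beside 46.7%. OM-CD_a ratios were thus called about as often as those of clusters in general at day 28. Between day 84 and day 28 limma called 0 of the 24 ratios and 0 of the 300 pairs, with 5 and 64 at an unadjusted p under 0.05.

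**Figure D2:**
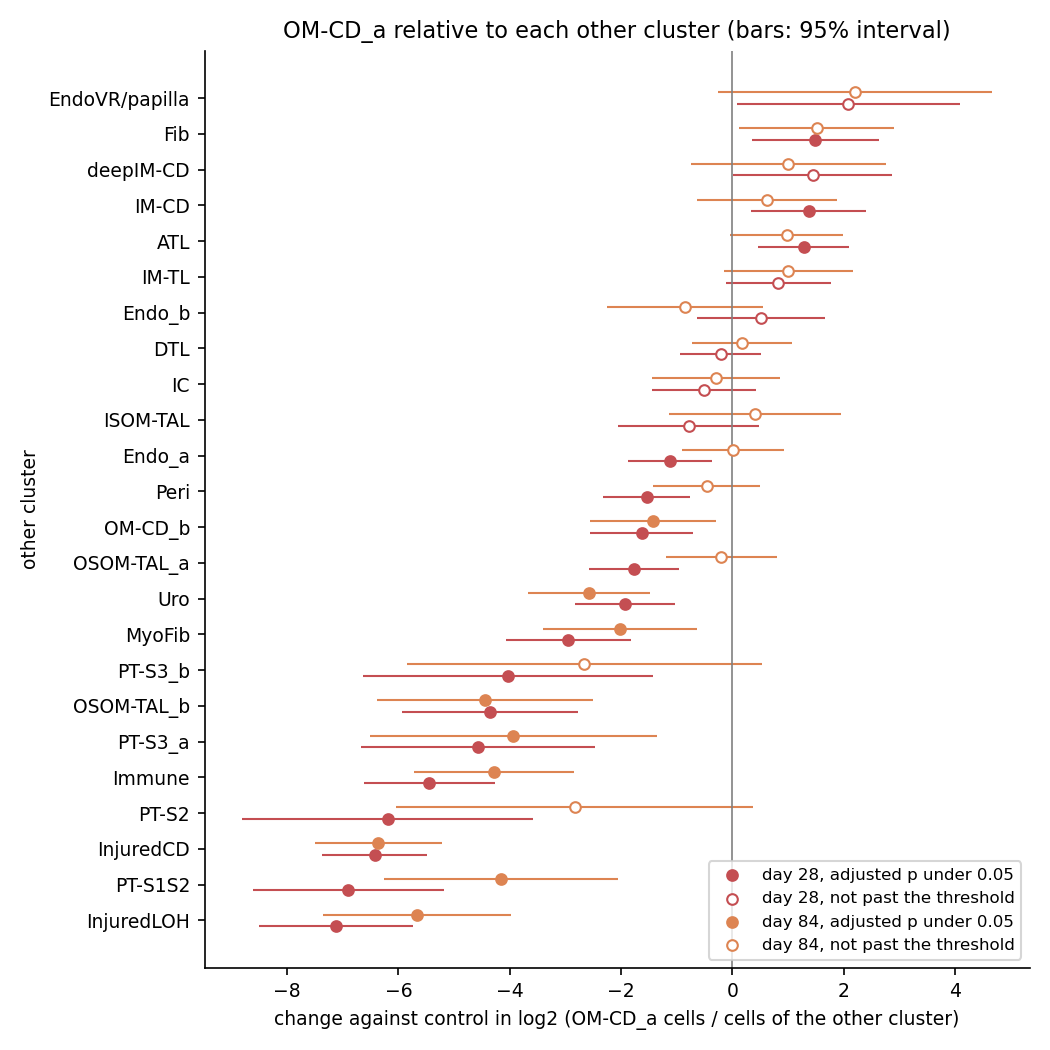
Change against control in the log2 ratio of OM-CD_a cells to cells of each of the 24 other clusters (horizontal axis, log2 units) at day 28 (red) and day 84 (orange); bars are 95% intervals, and filled points passed an adjusted p of 0.05. Points left of 0 mean fewer OM-CD_a cells per cell of the other cluster, as for OM-CD_b (-1.63 and -1.43), and points right of 0 mean more, as for IM-CD (1.37 and 0.62).

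How much RNA was read from OM-CD_a cells? The median UMI count per OM-CD_a cell was 1078, 1293, 989 and 1056 in the control pools. It was 2647, 2180, 1870 and 1739.5 at day 28, where every pool lay above every control pool, and 798 and 654.5 at day 84, where both lay below. The day 28 medians were 1.89 times the control (log2 change 0.92, standard error 0.247, limma adjusted p = 0.0017; exact two-sided permutation p = 0.0286). At day 84 the log2 change was -0.60 (95% interval -1.20 to -0.0044, limma adjusted p = 0.0822), which passed without day 28 pool 1 (adjusted p = 0.0068) or day 28 pool 4 (adjusted p = 0.0412). Day 84 lay below day 28 by 1.53 (standard error 0.303, limma adjusted p = 1.4e-05). Other clusters differed in depth too: of the 17 clusters with at least 20 cells in every pool 58.8% were called at day 28, 52.9% at day 84 and 100% between the 2 days.

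Set against the other cells of the same pool, OM-CD_a changed less. The median OM-CD_a cell had 0.849 ± 0.0643 times the UMIs of the median other cell in the controls, 0.976 ± 0.136 times at day 28 and 0.855 ± 0.0027 times at day 84 (SD over 4, 4 and 2 pools). Among the day 28 pools this ratio ran from 0.793 in pool 1 to 1.12 in pool 4, and it overlapped the controls. The log2 change was 0.19 at day 28 (95% interval -0.04 to 0.42, limma adjusted p = 0.176) and 0.01 at day 84 (95% interval -0.27 to 0.30, limma adjusted p = 0.92), with 35.3% and 11.8% of the 17 clusters called. Without day 28 pool 1 the day 28 change was 0.29 and passed (limma adjusted p = 0.0262).

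Relative to other clusters one by one, a comparison added after the data were seen, the picture differed by partner. The median UMIs of OM-CD_b cells were 2361, 5006, 3140.5 and 3145 in the controls, 7210, 5036, 4728 and 5394.5 at day 28, and 2682 and 1794 in the day 84 pools, above those of OM-CD_a in every pool. The log2 gap between both outer medullary clusters changed by 0.18 at day 28 (95% interval -0.19 to 0.54, limma adjusted p = 0.41) and by -0.02 at day 84 (95% interval -0.47 to 0.43, limma adjusted p = 0.957). IM-CD cells had 1077, 1279, 1094 and 1097 UMIs in the controls, close to OM-CD_a, but 1742, 1720, 1672.5 and 1001 at day 28, and 669 and 586 in the day 84 pools. Relative to IM-CD the UMIs of OM-CD_a rose by 0.52 at day 28 (fold 1.44, standard error 0.135, limma adjusted p = 0.0075), and the change at day 84 was 0.25 (95% interval -0.11 to 0.61, limma adjusted p = 0.275). Relative to deepIM-CD they rose by 1.45 (limma adjusted p = 6.1e-06) and 0.97 (limma adjusted p = 0.0011). The deepIM-CD medians were 5538 to 6997 in the controls, 3060 to 6475 at day 28, and 2507 and 1783 in the day 84 pools. At day 84 the medians of both clusters thus lay below those of the controls, with the larger fall in deepIM-CD. In all, OM-CD_a rose relative to 8 of 16 clusters at day 28, 50%, which is also the share called over all 136 pairs, and to 2 of 16 at day 84, 12.5% beside 28.7%.

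**Figure D3:**
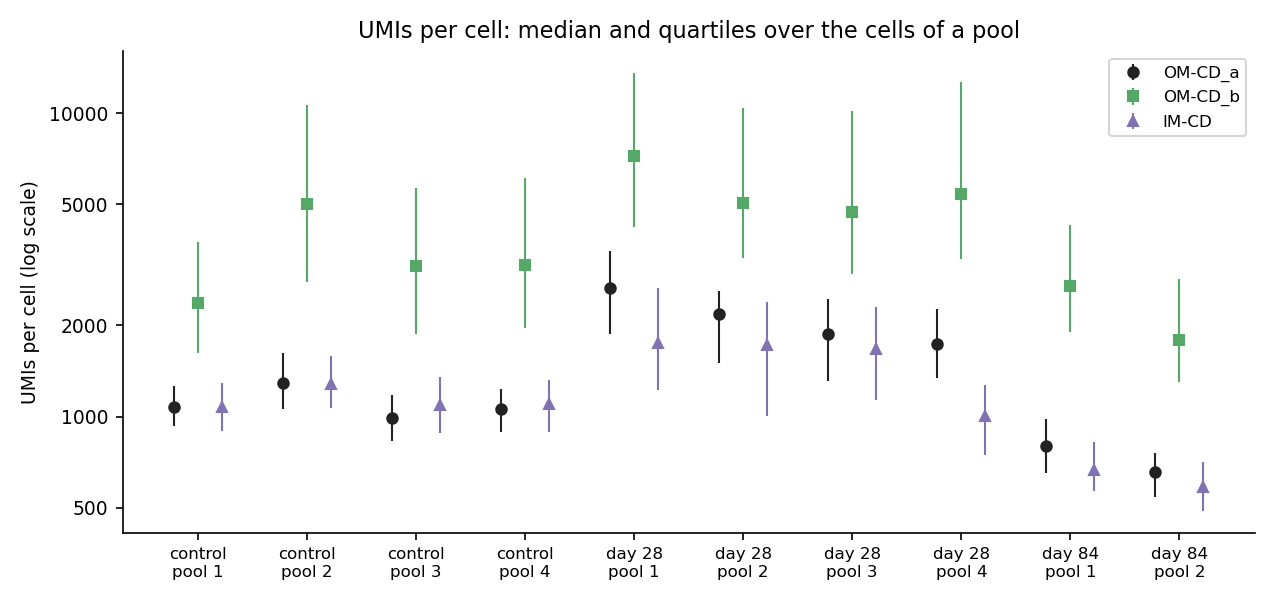
UMIs per cell on a log scale in each of the 10 pools for OM-CD_a (black circles), OM-CD_b (green squares) and IM-CD (purple triangles); points are medians over the cells of a pool and bars run from the lower to the upper quartile. OM-CD_a and IM-CD sit side by side in the controls (989 to 1293 and 1077 to 1279) and separate at day 28, most in pool 4 (1739.5 against 1001), while OM-CD_b lies above both throughout.

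The place of OM-CD_a along the depth of the CD cells is a description, since clusters were made from the same counts. When the CD cells of each pool were cut into quartiles by UMIs, OM-CD_a made up 49.6% ± 11.4 (SD, n = 4), 42.5% ± 5.44, 12.5% ± 9.72 and 0.102% ± 0.0723 of the cells from the lowest to the highest quartile in the controls. At day 28 the same shares were 38.2%, 42.0%, 16.4% and 0.387%, and at day 84 41.0%, 38.4%, 5.97% and 0.321%. OM-CD_a was thus close to absent from the deepest quartile of CD cells in each of the 10 pools, where it made up at most 0.579% of the cells. Individual OM-CD_a cells did reach high counts, up to 13080 UMIs in a day 28 pool.

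**Figure D4:**
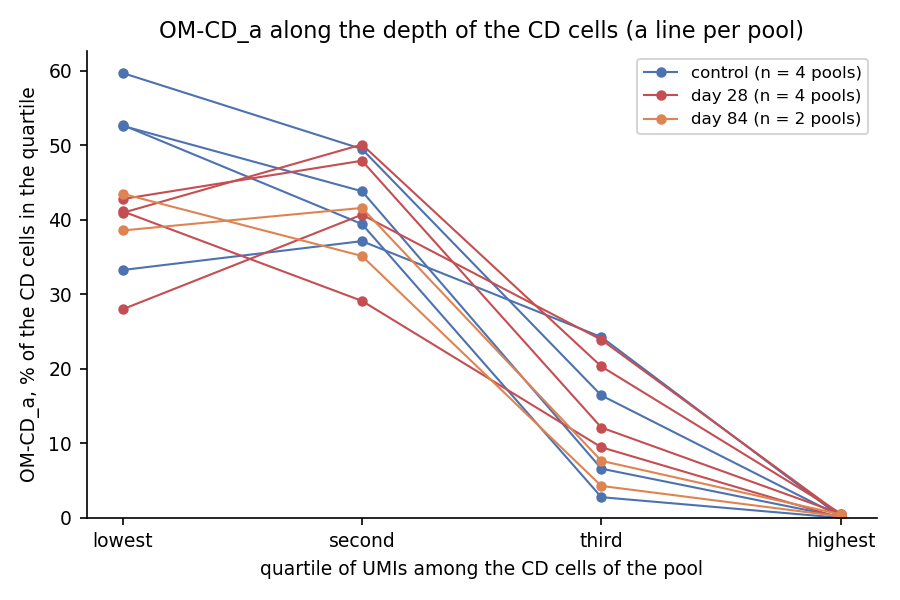
OM-CD_a as a percent of the CD cells in each UMI quartile of a pool (horizontal axis, from the lowest to the highest quartile), with a line for each pool coloured by condition. Every line ends under 0.58% in the highest quartile, and the 2 lowest quartiles hold 28.0% to 59.7% OM-CD_a cells.

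The depth of OM-CD_a cells also became more uneven at day 28. The ratio of the upper to the lower quartile of UMIs within a pool was 1.43 ± 0.0733 in the controls, 1.79 ± 0.0973 at day 28 and 1.46 ± 0.0782 at day 84 (SD over 4, 4 and 2 pools). Expressed as the interquartile range of log2 UMIs, the control pools had 0.442, 0.612, 0.509 and 0.478, the day 28 pools 0.906, 0.788, 0.903 and 0.753, and the day 84 pools 0.596 and 0.486. All 4 day 28 pools lay above all other pools. The range rose by 0.33 at day 28 (standard error 0.0617, limma adjusted p = 0.0025; exact two-sided permutation p = 0.0286), where 41.2% of the 17 clusters were called. At day 84 it differed from the controls by 0.03 (95% interval -0.14 to 0.20, limma adjusted p = 0.839), and limma called 0% of the clusters. Day 84 lay below day 28 by 0.30 (limma adjusted p = 0.0106, with 47.1% of clusters called), and without day 84 pool 2 this difference was -0.24 and did not pass (limma adjusted p = 0.122). In the same cells, 37.5% ± 13.0 had under 1000 UMIs in the controls, 10.5% ± 4.74 at day 28 and 84.0% ± 10.7 at day 84.

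Detected genes followed the UMIs. The median number of genes per OM-CD_a cell was 947, 1023, 827 and 867 in the control pools, 1778.5, 1534, 1327.5 and 1256 in the day 28 pools, and 673 and 542 in the day 84 pools. The 3 conditions did not overlap. The number rose at day 28 by 0.68 on the log2 scale (limma adjusted p = 0.0032, standard error 0.190) and fell at day 84 by 0.60 (limma adjusted p = 0.0196, standard error 0.232), where 58.8% and 76.5% of the 17 clusters were called. The day 84 change was -0.54 without control pool 2 (adjusted p = 0.0534) and -0.44 without day 84 pool 2 (adjusted p = 0.266), past the threshold in neither. Day 84 lay below day 28 by 1.27 (limma adjusted p = 2.8e-06), as did 100% of the clusters.

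At a matched depth no change in detected genes passed the threshold. Among OM-CD_a cells with 1000 to 1500 UMIs the median number of genes was 967.5 ± 43.7 in the controls, 975 ± 31.8 at day 28 and 910 ± 24.4 at day 84 (SD over 4, 4 and 2 pools). These medians rest on 563 to 829 cells per control pool, 64 to 137 per day 28 pool, and 258 and 95 in the day 84 pools. The log2 change was 0.01 at day 28 (95% interval -0.08 to 0.10, limma adjusted p = 0.867) and -0.09 at day 84 (95% interval -0.20 to 0.02, limma adjusted p = 0.344). The intervals keep the day 28 number within 0.948 to 1.07 times the control and the day 84 number within 0.873 to 1.02 times. Of the 6 clusters with enough such cells, 0% were called at day 28 and 16.7% at day 84.

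Mitochondrial UMIs nearly vanished from OM-CD_a cells after R-UUO, as they did from most other clusters. The mean mitochondrial percent was 0.860, 1.61, 0.889 and 0.861 in the control pools, 0.177, 0.0196, 0.0510 and 0.00506 at day 28, and 0.0288 and 0 at day 84. No R-UUO pool reached the lowest control pool. On the scale of log2(percent + 0.01) OM-CD_a fell by 4.43 at day 28 (limma adjusted p = 9.6e-05) and by 5.70 at day 84 (limma adjusted p = 4.7e-05), with standard errors of 0.824 and 1.01, and 94.1% of the 17 clusters were called at each time. In the rest of the pool the mean was 1.49% to 2.48% in the controls, 0.148% to 0.539% at day 28, and 0.145% and 0.113% at day 84.

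The share of OM-CD_a cells with no mitochondrial UMI gives the same data as counts of cells. It was 0.125%, 0%, 1.56% and 1.13% in the controls, 32.9%, 77.5%, 72.7% and 95.7% at day 28, and 83.2% and 100% at day 84, where all 1558 cells of pool 2 had none. Of the other cells in day 84 pool 2, 96.5% had none either, though only 10.2% of its ISOM-TAL cells had none. The 0 of 1704 cells in control pool 2 allows a share of up to 0.176%, counting error only. Both R-UUO times lay above all controls (log2 odds change, with 0.5 cells added to each part, of 10.01 at day 28, limma adjusted p = 1.7e-05, and 15.31 at day 84, limma adjusted p = 2.1e-07), as did 100% of clusters. The gap was also present at matched depth: OM-CD_a cells with 1000 to 1500 UMIs had 1.04% ± 0.347 mitochondrial UMIs in the controls and 0.156% ± 0.256 at day 28.

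OM-CD_a and OM-CD_b also differed in this measure within the control pools, given here as a description because the clusters were made from the same cells. OM-CD_b cells had 3.13%, 3.99%, 3.96% and 3.77% mitochondrial UMIs, more than OM-CD_a in each of the 4 pools. Between 1500 and 2500 UMIs, where both clusters have cells, the means were 3.28% ± 0.558 (SD, n = 4) for OM-CD_b and 1.10% ± 0.349 (SD, n = 4) for OM-CD_a. IM-CD cells in that range had 0.911% ± 0.433 (SD, n = 4), near OM-CD_a. Within the same range OM-CD_a cells had 1395 ± 70.5 detected genes in the controls, OM-CD_b cells 1385 ± 46.8 and IM-CD cells 1374 ± 77.8. At day 28 the corresponding numbers were 1426 ± 53.7 for OM-CD_a, 1128 ± 144 for OM-CD_b and 1366 ± 52.0 for IM-CD. The OM-CD_b medians ran from 1002 to 1330.5 and rest on only 29, 37, 77 and 64 cells per pool. Those of deepIM-CD spread as widely, at 951.5, 1070, 1231 and 1415.5. In the day 84 pools OM-CD_a cells had 1297 and 1270, and OM-CD_b cells 1329 and 1190.

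**Figure D5:**
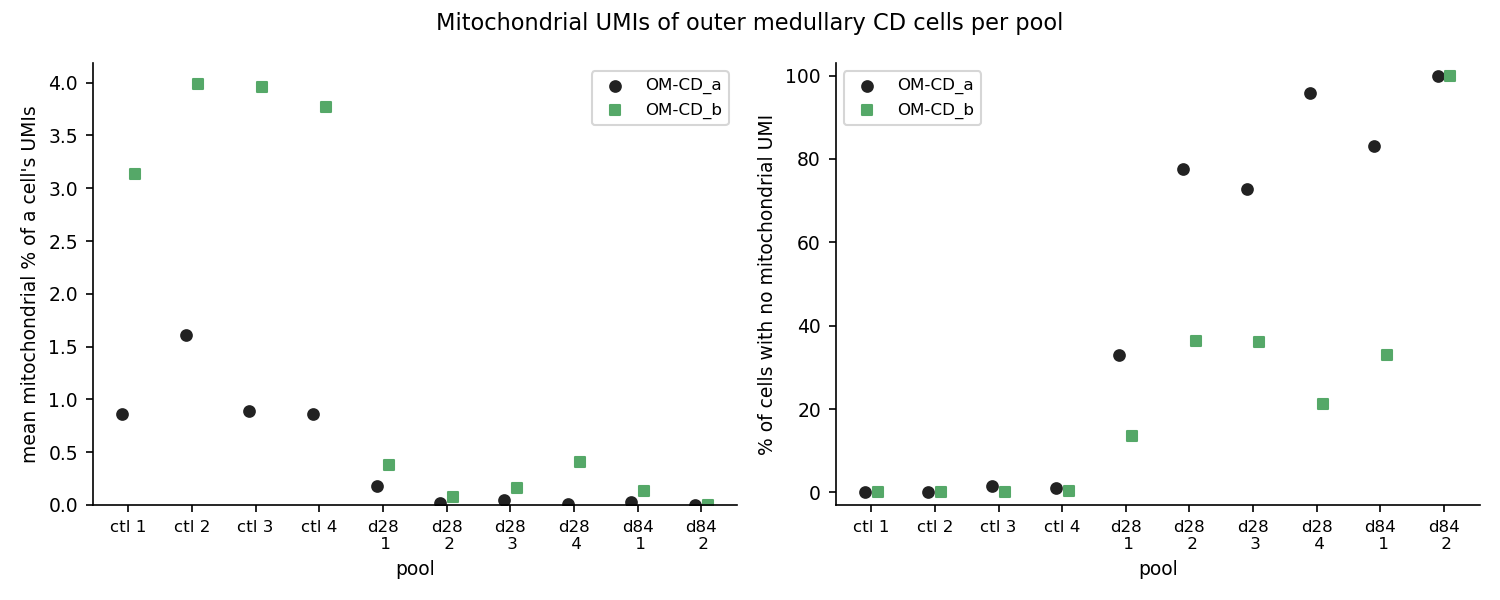
Mean mitochondrial percent of a cell's UMIs (left) and percent of cells with no mitochondrial UMI (right) in each pool (ctl, control; d28 and d84, days 28 and 84) for OM-CD_a (black circles) and OM-CD_b (green squares). In the controls OM-CD_a lies at 0.860% to 1.61% and OM-CD_b at 3.13% to 3.99%; after R-UUO both lie under 0.41%, and 32.9% to 100% of OM-CD_a cells have no mitochondrial UMI.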

How the data were processed

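Fixed cells of pooled medullas were hybridised with a genome-wide mouse probe set (10x Genomics Flex). The submitters' processing notes name Cell Ranger 7.1 and mm10. The authors kept cells with at least 300 genes and up to 10% mitochondrial reads, subtracted ambient RNA (SoupX), took out doublets (scDblFinder and mixed marker signatures), then integrated and clustered the cells (Seurat; versions not given in the sources used here); 1 deposited OM-CD_a cell has fewer than 300 genes. The deposited values are, per cell, UMI counts (whole numbers except in control pool 1, where they are fractional, expected counts), counts of detected genes and a mitochondrial percent, as the authors computed them.

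Here the pool was the replicate. Shares became log2 odds after adding 0.5 cells, ratios log2 after adding 0.5 cells, and UMIs and genes log2 pool medians. Each was fitted over all eligible clusters or pairs (at least 20 cells in every pool for per-cell measures) with limma 3.58.1 in R 4.3.3 (lmFit, eBayes, 3 contrasts, two-sided, Benjamini-Hochberg adjustment over the features, threshold 0.05). An exact two-sided permutation test over pools stood beside it for OM-CD_a; with 4 pools on each side its smallest p is 0.0286, and with 4 and 2 pools 0.133, too large for day 84 to pass. Python 3.11.15 with pandas 2.3.3, scipy 1.17.1 and matplotlib 3.10.9 was used, and the fits were tested on simulated data. P-values measure the spread between pools within a droplet run. With 572 to 1704 OM-CD_a cells per pool, the number of pools limits precision more than counting does.

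The cluster, the lists and the tests were chosen with earlier results of these data known. Clusters named beside OM-CD_a are OM-CD_b, IM-CD, ISOM-TAL, proximal tubule, InjuredCD and deepIM-CD by rule. Others are counted only, except where a count of 5 or fewer, or the outer medullary set, is spelled out. UMIs relative to another cluster, and the CD share without Uro, were added after seeing the data. Alternatives were other denominators, scales and UMI windows, stricter cell filters, leaving out cells in shared droplets or the 5% of cells with the most UMIs, the exact test, and leaving out each pool.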

Additional observations from a re-analysis of the deposited data

Results flagged for a closer look

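Control pool 2 stood apart from the other 3 control pools in the mean mitochondrial percent of OM-CD_a cells, 1.61% against 0.860% to 0.889% (the gap to the next pool was 0.960 of the range of the 4 pools, past Dixon's 95% critical value). It was the 1 of 22 groups examined that passed, where chance would give about 1.1. The mean of the other cells of that pool was also the highest among the controls, at 2.48% against 1.49% to 1.86%, and the pool had the deepest OM-CD_a cells (median 1293 UMIs) and the lowest number of OM-CD_a cells per OM-CD_b cell (2.25). The cause was not tested.

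The days after R-UUO differed from each other in 3 measures of OM-CD_a, by limma on day 84 minus day 28. Median UMIs differed by -1.53 (log2), median detected genes by -1.27 (log2) and the interquartile range of log2 UMIs by -0.30, with adjusted p of 1.4e-05, 2.8e-06 and 0.0106. Both day 84 pools lay below all 4 day 28 pools in each measure. The first 2 differences were called in 100% of the 17 clusters and the third in 47.1%, and day and droplet run cannot be told apart.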

How the results depend on the processing

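No paired analysis was possible because pools of different conditions hold different mice and the GEO labels carry 1 sample per condition. Of 221 values recomputed under settings other than leaving out a pool, 202 kept their direction and their side of the threshold, and with a pool left out 457 of 490 did. Where a value changed, the cause was not tested.

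The CD share changed at day 28 by 0.27 without InjuredCD, 0.080 without Uro (added after the data were seen) and -1.63 with OM-CD_b as the only partner; with that partner the day 84 change was -1.43 and that between the days 0.21. Among outer medullary clusters the day 84 change of the share was -1.19 and passed the threshold (limma adjusted p = 0.0225). Between the days the share of all cells changed by 0.67 without shared droplets and by 0.054 on the arcsine scale, both past the threshold. Under the stricter cell filter (500 genes, 5% mitochondrial) the day 84 values were -0.81 for the CD share (past the threshold), -0.23 for UMIs relative to the pool (-0.36 between the days), -0.061 for the spread and -0.52 for the ratio to ISOM-TAL, and OM-CD_a rose relative to 2 clusters (1 between the days). UMIs relative to the pool at day 84 changed by -0.014 against the median of cluster medians and by -0.040 as odds of pairs, the spread by -0.017 as an SD, and the ratio to OM-CD_b by -1.30 without the 5% deepest cells (limma adjusted p = 0.0503).

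With a pool left out, the ranges of results that changed were, at day 28, 0.12 to 0.29 for UMIs relative to the pool, -0.0069 to 0.038 for genes at matched UMIs, 1.11 to 1.60 and 0.86 to 1.97 for the ratios to IM-CD and deepIM-CD, and 1 to 5 clusters relative to which OM-CD_a rose. At day 84 they were -0.75 to -0.46 for UMIs, -0.018 to 0.063 for UMIs relative to the pool, -0.75 to -0.44 for genes, -0.024 to 0.086 for the spread, -1.73 to -1.23 and -0.22 to 1.03 for the ratios to OM-CD_b and ISOM-TAL, -0.17 to 0.13 for UMIs relative to OM-CD_b, and 0 to 2 clusters relative to which OM-CD_a rose. Between the days they were 0.68 to 0.72 for the share of all cells, 0.65 to 9.95 for the odds of no mitochondrial UMI, -0.35 to -0.24 for the spread and 0 to 2 clusters.

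With 2 pools at day 84 in a single droplet run, intervals there are wide. Depth also limits day 84, where 76.4% and 91.6% of OM-CD_a cells had under 1000 UMIs.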

Other observations

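Cells found in the same droplet as an OM-CD_a cell, but carrying the probe barcode of another pool, were themselves OM-CD_a in 8.35% of 4860 control cases, 4.72% of 1482 day 28 cases and 8.90% of 719 day 84 cases. Among all cells of the partner pools in shared droplets, OM-CD_a made up 8.17%, 4.14% and 6.70%. OM-CD_a cells in shared droplets had median UMIs near those of OM-CD_a cells alone in a droplet, for example 986 against 995 in control pool 3, 2675 against 2629 in day 28 pool 1 and 663 against 650 in day 84 pool 2.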
